A study of Mus musculus with 6 samples.

Results

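Krt5, Krt14, Krt15, Col17a1, Itga6 and Dsg3 are 6 genes of the basal layer of mouse skin, chosen by name from the 16158 gene columns of 6 single-cell libraries. They were read in keratinocytes, defined as cells with a summed Krt5 and Krt14 level of at least 50 unique molecules (UMIs) per 10000 and no UMI of Ptprc, the gene of the leukocyte surface protein CD45. That definition took 6390 of the 21178 deposited cells, and these are called gated cells. Just inside that bound, from 50 to 60 UMIs per 10000, lay 515 cells, and just outside it, from 40 to 50, lay 547. The mice were of the NINJA strain and 6 to 12 weeks old. The series' text describes this strain as one in which an antigen can be switched on in skin treated with 4-OH-Tam, and animals were examined for visible skin disease and for P14 CD8 T cells. Labels gave 3 groups of 2 mice each: antigen off (NO_AG), antigen on (AG), and antigen on with CPI treatment (AG_CPI). Cells came from treated skin, and the comparisons ask how basal keratinocyte genes differed when the antigen was on, with and without CPI. With 2 mice a group, the fits pooled the spread over all 6 mice.

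Basal keratinocytes rest on the basement membrane, divide, and supply the layers above them. Their keratin filaments end below at hemidesmosomes, which bind laminin in the basement membrane, and at the sides at desmosomes, which bind neighbouring cells. In interface dermatitis, immune cells gather along this boundary and injure the basal cells. The name given to the set, adhesion and basement membrane genes, covers it only in part. Krt5 and Krt14 encode the keratin pair that fills basal cells, and Krt15 encodes a further acidic keratin of basal cells and of hair follicle stem cells, so 3 of the 6 genes encode filament proteins. Col17a1 encodes a membrane-spanning collagen of the hemidesmosome, and Itga6 encodes the integrin chain that pairs there with the product of Itgb4. Dsg3 encodes a desmosomal cadherin. None of the 6 encodes a protein of the basement membrane itself.

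The acidic keratin genes lie close together on chromosome 11 in GRCm38: Krt15 at chr11:100131758-100135928 with 8 exons and Krt14 at chr11:100203162-100207548 with 8 exons, both on the minus strand. Krt5 lies on chromosome 15, Col17a1 on chromosome 19 and Itga6 on chromosome 2. Keratin coding sequences are alike, which bears on how far their UMIs can be told apart. The 90 coding bases in which Krt14 and Krt15 were most alike, from GENCODE M21, are shown because the report turns on the different levels of these genes. Capitals mark the bases that differ.
Krt14: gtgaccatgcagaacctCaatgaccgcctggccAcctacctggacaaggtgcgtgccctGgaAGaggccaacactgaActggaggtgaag
Krt15: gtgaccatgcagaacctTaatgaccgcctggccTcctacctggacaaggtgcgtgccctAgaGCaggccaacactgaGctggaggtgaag

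Of those 90 bases, 84 were identical, and the longest identical run anywhere in the 2 coding sequences was 28 bases. Krt14 shared longer runs with the stress keratin genes Krt16, at 134 bases, and Krt17, at 71 bases. Krt15 shared a run of 50 bases with Krt17, and 87 of 90 bases where they were most alike. Krt5 shared a run of 140 bases with the stress keratin gene Krt6a. A stretch from the Krt16 run and one from the Krt6a run are shown because a read lying within either has no base that separates the pair.
Krt14 and Krt16: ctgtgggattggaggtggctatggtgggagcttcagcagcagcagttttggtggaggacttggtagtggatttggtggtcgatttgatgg
Krt5 and Krt6a: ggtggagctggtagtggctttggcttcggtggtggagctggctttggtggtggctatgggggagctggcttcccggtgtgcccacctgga

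How the authors' counting treated such reads is not given in the sources used here, so the Krt14, Krt15 and Krt5 levels are uncertain to that extent. In gated cells Krt16 averaged 0.137 and 0.128 UMIs per 10000 in NO_AG mice, 0.970 and 7.74 in AG mice, and 7.22 and 2.98 in AG_CPI mice. Krt6a averaged 0.424 and 0.979, 0.891 and 14.3, and 8.97 and 3.26 in the same order. Both stress keratins were highest in mouse AG 2, while Krt17 ranged from 13.3 to 37.4 over the 6 mice.

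Several library facts moved with the groups or with 1 mouse. Gated cells numbered 1980 and 1585 in NO_AG mice, 895 and 1596 in AG mice, and 143 and 191 in AG_CPI mice, so each AG_CPI mean rests on few cells. Their share of kept cells was 39.9% and 38.8% in NO_AG mice, 25.7% and 34.3% in AG mice, and 8.24% and 8.65% in AG_CPI mice, with no overlap between groups. Their median depth ran from 2510.5 UMIs in AG 2 to 6878 in AG 1. AG 2 also had most cells of the stress keratin state described below, 418 of 489. In gated cells of AG_CPI 1 the Y-linked gene Ddx3y was found in 16.1% and Xist in 2.10%, whereas in the other 5 mice Ddx3y was at 0 and Xist was found in 65.9% to 89.2%; the labels give no sex. Pairs of libraries shared 5 to 35 cell barcodes. All 6 myeloid markers were above 0 in gated cells of every mouse, with a summed level of 3.68 and 4.51 UMIs per 10000 in NO_AG mice, 6.76 and 19.98 in AG mice, and 10.1 and 16.5 in AG_CPI mice, so both NO_AG mice were lowest. The T cell markers summed to 0.63 to 2.26, with Ptprc at 0 by definition, and the fibroblast markers to 0.0167 to 1.4. The part of these in the results was not tested, except by leaving out the deepest cells and cells that carried markers of another type, Cd74 among them.

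Of the 6 genes, Krt15 had the largest difference from NO_AG in both other groups. Its mean level in gated cells was 67.9 and 62.4 UMIs per 10000 in NO_AG mice 1 and 2, 31.8 and 8.25 in AG mice 1 and 2, and 16.1 and 14.2 in AG_CPI mice 1 and 2. Both NO_AG mice lay far above the other 4. Of all genes tested, 31.7% had both AG mice below both NO_AG mice and 34.9% had both AG_CPI mice below them, so a lack of overlap by itself is common. The AG mice differed from each other more than the AG_CPI mice did. Group means were 65.2 ± 3.95 (SD, n = 2) for NO_AG, 20.01 ± 16.6 (SD, n = 2) for AG and 15.2 ± 1.28 (SD, n = 2) for AG_CPI.

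On the log2(mean + 0.1) scale the Krt15 difference in AG minus NO_AG was -1.94 (SE 0.56, 95% interval -3.25 to -0.62), which did not pass in limma's test (adjusted p = 0.34, threshold 0.05). No member passed in this comparison, in which limma called 41 of 8165 genes, or 0.502%. AG_CPI minus NO_AG gave -2.02 (SE 0.56) for Krt15, with a limma adjusted p of 0.15, against a background of 79 genes called, or 0.968%, and again no member passed. Only 3 of the 8165 genes had a lower value than Krt15 in AG minus NO_AG, and 15 in AG_CPI minus NO_AG. AG_CPI minus AG gave -0.08 for Krt15, less than the spread between the AG mice, with a wide 95% interval of -1.4 to 1.23. In that comparison limma called 0 genes, or 0.0%, while 688, or 8.43%, had an unadjusted p under 0.05.

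The Krt15 difference in AG depended on single mice. Without AG 1, the AG minus NO_AG value was -2.94, and without AG 2 it was -0.92. Its size thus moved by more than the SE according to which AG mouse was kept. Refits of this kind leave 1 mouse in a group, so only their sizes are read. No AG mouse enters AG_CPI minus NO_AG except through the scaling and the pooled spread. Its -2.03 without AG 1 and -2.02 without AG 2 were thus near the full value by design. Leaving out either NO_AG or either AG_CPI mouse kept AG_CPI minus NO_AG between -2.15 and -1.90. With cells weighted to 1 make-up of states in every mouse, the difference was -1.42 in AG and -1.71 in AG_CPI, and with cells carrying other cell types' markers left out it was -1.92 and -2.05. None of those 4 values passed, the lowest adjusted p being 0.070. The cells so left out were many and moved with the groups, at 13.9% and 22.9% of gated cells in NO_AG mice, 23.0% and 54.1% in AG mice, and 29.4% and 44.5% in AG_CPI mice. They also took in the deepest cells of each library and all cells with high Cd74. Keratinocytes with Cd74 of their own were not told apart from mixed droplets.

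The difference was seen across cells rather than in a few of them. The median gated cell held 48.3 and 38.0 UMIs of Krt15 per 10000 in NO_AG mice, 16.2 and 3.32 in AG mice, and 5.24 and 5.90 in AG_CPI mice. Gated cells without any Krt15 UMI made up 4.19% and 6.50% in NO_AG mice, 19.0% and 44.9% in AG mice, and 42.0% and 32.5% in AG_CPI mice. Depth differed between these libraries. After every cell was thinned to 1500 UMIs, Krt15 was found in 91.1% and 88.6% of cells in NO_AG mice, 69.4% and 44.3% in AG mice, and 49.0% and 53.9% in AG_CPI mice, so both NO_AG mice remained above the other 4. T cells, which should lack keratins, gave a background level. No bound on keratins was set for them, so free RNA and droplets that also held a keratinocyte were not told apart. Over 7380 T cells, thinned alike, Krt15 was found in 15.7% and 14.6% in NO_AG mice, 5.39% and 10.3% in AG mice, and 1.21% and 2.99% in AG_CPI mice. Without thinning the T cell share was 1.76% to 20.1%, at median depths of 2388 to 2976 UMIs. The share in gated cells was above that background in each of the 6 mice, and the background itself was higher in NO_AG.

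**Figure D1:**
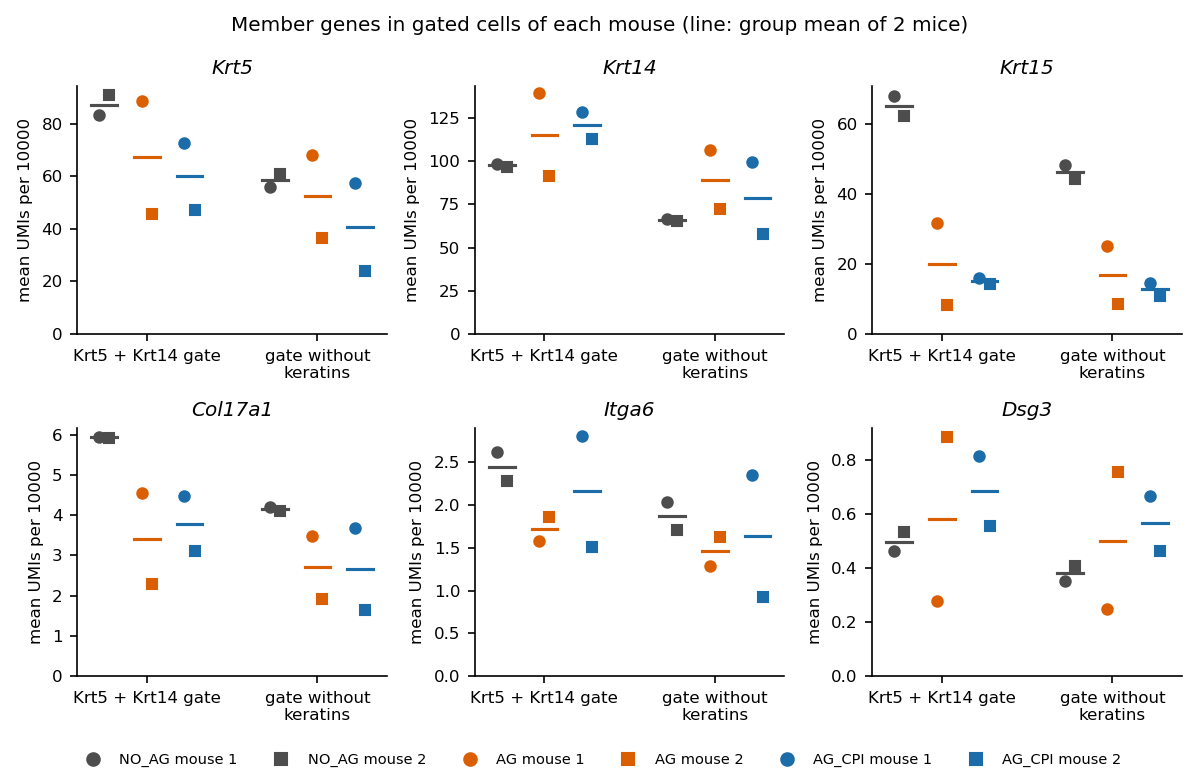
Mean level of each of the 6 genes (vertical axes, UMIs per 10000, one scale per gene) in gated cells, on the left of each panel, and in keratinocytes chosen without Krt5 and Krt14, on the right, with 1 point for each of the 2 mice of NO_AG, AG and AG_CPI and a line at the group mean. In gated cells Krt15 lies at 62.4 to 67.9 in the NO_AG mice and at 8.25 to 31.8 in the other 4, while Itga6 and Dsg3 overlap between groups in most comparisons.

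Krt5 and Krt14 defined the gated cells, so their levels there are a description. Krt5 averaged 83.4 and 91.0 UMIs per 10000 in NO_AG mice, 88.7 and 45.6 in AG mice, and 72.7 and 47.3 in AG_CPI mice. Krt14 averaged 98.5 and 96.6 in NO_AG mice, 139 and 91.4 in AG mice, and 128 and 113 in AG_CPI mice. Krt5 was low in AG 2 and AG_CPI 2, and Krt14 was above both NO_AG mice in every mouse except AG 2.

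Both keratins were tested in keratinocytes chosen without them, by a summed level of at least 20 UMIs per 10000 over a list of epithelial genes, among them Perp, Sfn, Lgals7, Fxyd3, Serpinb5, S100a14 and Trp63, and no Ptprc. That set held 9612 cells, among them all 6390 gated cells. Krt5 averaged 56.0 and 61.0 in NO_AG mice, 68.0 and 36.6 in AG mice, and 57.3 and 23.9 in AG_CPI mice. Its difference in AG minus NO_AG was -0.17 (95% interval -1.29 to 0.96, limma adjusted p = 0.98), and in AG_CPI minus NO_AG -0.62 (-1.75 to 0.50, adjusted p = 0.60). Krt14 averaged 66.8 and 65.5, 106 and 72.1, and 99.6 and 57.8 in the same order. The 2 NO_AG mice sat between the AG_CPI mice, and the Krt14 difference of 0.46 in AG minus NO_AG (-0.34 to 1.26, limma adjusted p = 0.89) did not pass, nor did 0.23 in AG_CPI minus NO_AG (-0.57 to 1.03, adjusted p = 0.79). The intervals are wide, so these fits leave room for sizeable differences in either gene. Leaving out single mice turned the sign of Krt5 in both comparisons, from -0.65 to 0.32 in AG and from -1.29 to 0.05 in AG_CPI minus NO_AG, and of Krt14 in AG_CPI minus NO_AG, from -0.20 to 0.67. In this set limma called 0.42% of 8333 genes in AG, 0.228% in AG_CPI against NO_AG and 0.0% in AG_CPI against AG, with no member among them. Krt15 stood at 48.3 and 44.2, 25.2 and 8.47, and 14.5 and 10.9 here, again with both NO_AG mice highest. Its difference was -1.59 in AG minus NO_AG (limma adjusted p = 0.48) and -1.83 in AG_CPI minus NO_AG (adjusted p = 0.22).

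The balance among the keratins was read as ratios of their levels. Krt14 over Krt5 was 1.18 and 1.06 in NO_AG mice, 1.57 and 2.00 in AG mice, and 1.77 and 2.39 in AG_CPI mice. All 4 antigen-on mice lay above both NO_AG mice, and the same was true in keratinocytes chosen without the 2 genes, where the ratio was 1.19 and 1.07 in NO_AG and 1.57 to 2.42 in the other 4. Krt15 over Krt14 was 0.690 and 0.646 in NO_AG mice, 0.228 and 0.0902 in AG mice, and 0.125 and 0.126 in AG_CPI mice. Each of these AG or AG_CPI comparisons with NO_AG gave a two-sided exact permutation p of 0.333, the smallest that 2 mice against 2 can give, so none can pass. Altogether 96 such ratio comparisons were made. Each ratio is read across mice only.

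**Figure D2:**
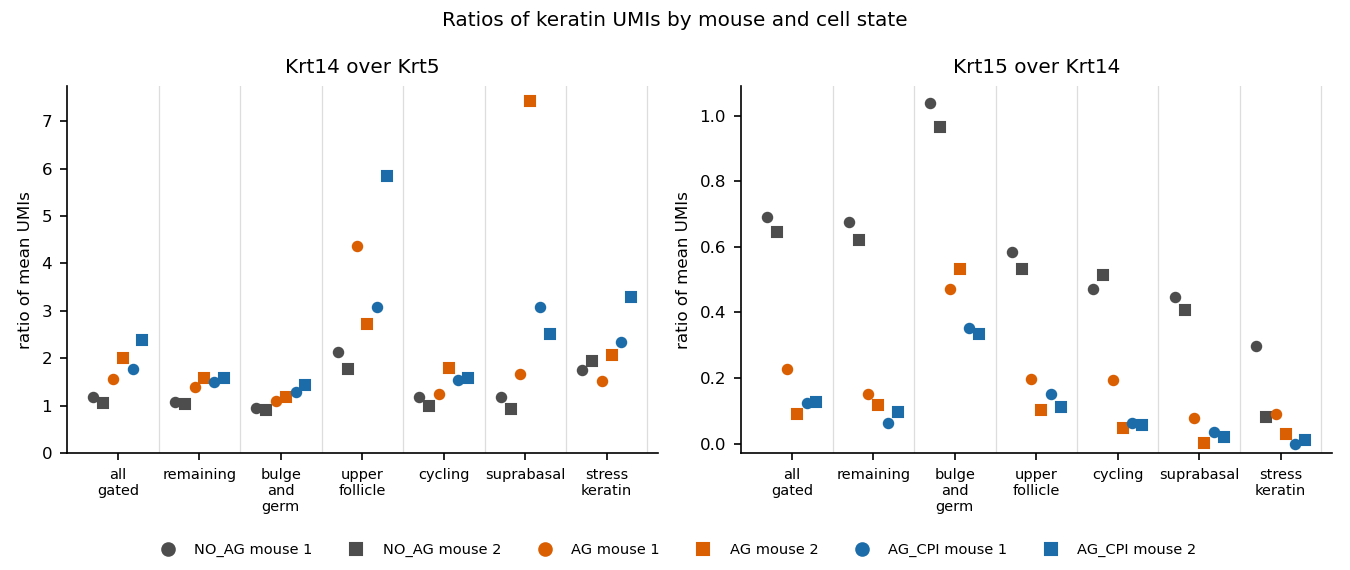
Ratio of mean levels in gated cells (vertical axes, linear scale) for Krt14 over Krt5 and Krt15 over Krt14, with 1 point per mouse in all gated cells and in each keratinocyte state. Krt14 over Krt5 lies at 1.06 and 1.18 in the NO_AG mice and at 1.57 to 2.39 in the other 4 over all gated cells.

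Col17a1, the hemidesmosomal collagen, averaged 5.96 and 5.92 UMIs per 10000 in NO_AG mice, 4.55 and 2.28 in AG mice, and 4.48 and 3.1 in AG_CPI mice. Both NO_AG mice lay above the other 4. As with Krt15, that lack of overlap is common among genes. The difference of -0.80 in AG minus NO_AG did not pass (95% interval -1.61 to 0.02, limma adjusted p = 0.60), nor did -0.58 in AG_CPI minus NO_AG (adjusted p = 0.46). Single mice moved both: AG minus NO_AG was -1.31 without AG 1 and -0.27 without AG 2, and AG_CPI minus NO_AG was -0.89 without AG_CPI 1 and -0.29 without AG_CPI 2, none of which passed. With 1 make-up of states in every mouse, the AG difference was -0.40. T cells gave Col17a1 levels of 0.0471 to 0.360, well under those in gated cells.

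Itga6 averaged 2.62 and 2.28 in NO_AG mice, 1.58 and 1.86 in AG mice, and 2.81 and 1.51 in AG_CPI mice. The AG mice lay below both NO_AG mice, while the AG_CPI mice held the highest and the lowest of the 6 values. Its differences were -0.43 in AG minus NO_AG (95% interval -1.11 to 0.25, limma adjusted p = 0.81) and -0.16 in AG_CPI minus NO_AG (-0.84 to 0.53, adjusted p = 0.84). The latter turned with the AG_CPI mouse kept, at -0.63 without AG_CPI 1 and 0.30 without AG_CPI 2, so no direction is read. Dsg3, on chromosome 18, averaged 0.462 and 0.533 in NO_AG mice, 0.279 and 0.887 in AG mice, and 0.815 and 0.555 in AG_CPI mice, and AG 1 and AG 2 were its lowest and highest mice. Leaving out AG 1 gave 0.75 for Dsg3 in AG minus NO_AG and leaving out AG 2 gave -0.57, neither of which passed. The Dsg3 level was low enough that after thinning it was found in 3.69% to 11.7% of gated cells, against 0.0929% to 1.49% of T cells, and without thinning in 14.9% to 25.9% against 0.279% to 3.68%.

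Gated cells were sorted into 6 states by markers outside the set, applied in order: 943 cycling cells, 489 stress keratin cells (Krt6a, Krt6b and Krt16), 289 suprabasal cells (such as Krt1 and Krt10), 1730 upper follicle cells (such as Krt79 and Lrig1), 1273 bulge and germ cells (such as Cd34 and Postn), and 1666 remaining cells with none of these at the thresholds. Each state is a range cut from summed markers: 729 gated cells, whichever state they were put in, had a bulge and germ sum within 20% of its threshold. The remaining cells come closest to the basal cells between follicles. Their number fell unevenly over mice, from 765 in NO_AG 1 to 14 in AG_CPI 2, and no test of the state shares is given.

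Compared with the remaining cells of the same mouse, suprabasal cells held less of most members. A mouse entered these fits for a state where it had at least 20 cells both of that state and of the remaining cells. All 6 mice did so in keratinocytes chosen without Krt5 and Krt14. In gated cells AG_CPI 2, with 14 remaining cells, entered none, only NO_AG 1, NO_AG 2 and AG 1 entered for suprabasal cells, and only the NO_AG and AG mice for cycling cells. In keratinocytes chosen without Krt5 and Krt14, suprabasal minus remaining was -1.5 for Krt5 (SE 0.19), -0.71 for Krt14 (SE 0.23), -2.30 for Krt15 (SE 0.34), -1.64 for Col17a1 (SE 0.35) and -1.38 for Itga6 (SE 0.20). All 5 passed in limma with mouse as block (adjusted p from 4.5e-07 to 0.019), against 27.4% of 9536 genes called. Dsg3 did not pass there or in any other state. The Krt14 call was lost without any 1 of NO_AG 1, NO_AG 2, AG 1 or AG_CPI 1, at values from -0.64 to -0.54. In gated cells of those 3 mice, where 9.49% of genes were called, the Krt15 value was smaller, -1.2, and without AG 1 it was -0.90 with an adjusted p of 0.17.

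In upper follicle cells the keratinocytes chosen without Krt5 and Krt14 gave -1.70 for Krt5 (SE 0.19), -1.68 for Col17a1 (SE 0.35) and -1.02 for Itga6 (SE 0.20), all of which passed in limma, where 8.05% of genes were called. Krt14 and Krt15 did not pass, at -0.48 and -0.30. Cell choice mattered for Krt15: in gated cells, with 11.2% of genes called, it was -0.77 with an adjusted p of 0.042, and it no longer passed without NO_AG 1, NO_AG 2 or AG 1. The hemidesmosomal genes Col17a1 and Itga6 were lower in upper follicle cells by either choice of cells.

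Cycling cells also held less Col17a1, at -1.05 in gated cells (SE 0.21, limma adjusted p = 0.0018, 7.46% of 9279 genes called) and -1.12 by the other choice of cells (adjusted p = 0.046), where the call was lost without any 1 of 4 mice, against 7.82% called. Krt15 in cycling cells was -0.84 in gated cells (limma adjusted p = 0.053) and -1.05 by the other choice (adjusted p = 0.049), a call lost without any 1 mouse other than AG 2. Itga6 was -0.94 in gated cells (adjusted p = 0.00039) and -0.61 by the other choice (adjusted p = 0.060). Bulge and germ cells held the most Krt15 of the states in both AG mice and in both AG_CPI mice. Their difference from the remaining cells, 0.63 in gated cells and 1.08 by the other choice, did not pass (limma adjusted p = 0.15 and 0.069, with 3.69% of genes called by the other choice). Itga6 there was -0.61 in gated cells (adjusted p = 0.014, 5.72% called) and 0.07 by the other choice, a change of sign, so no direction is read.

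**Figure D3:**
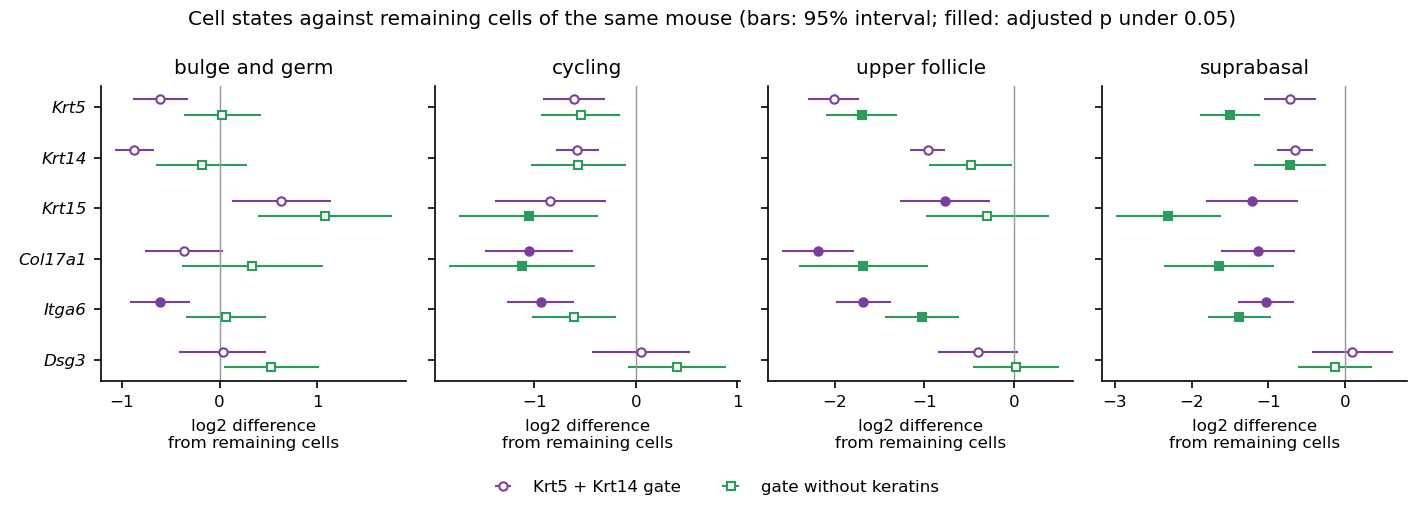
Difference of each state from the remaining cells of the same mouse (horizontal axis, log2 scale) for the 6 genes, as limma estimates with their 95% intervals, in gated cells (circles) and in keratinocytes chosen without Krt5 and Krt14 (squares), filled where the adjusted p was under 0.05 except for Krt5 and Krt14 in gated cells, which are drawn unfilled as a description. In suprabasal and upper follicle cells Krt5, Col17a1 and Itga6 lie to the left of 0, and Dsg3 is filled in no state.

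Within states, the order of groups for Krt15 was the same in all 6: both AG mice and both AG_CPI mice lay below both NO_AG mice. Over the 6 states, 19.9% to 28.8% of all genes had both AG mice below both NO_AG mice, and 20.8% to 35.7% had both AG_CPI mice below them. The remaining cells averaged 88.0 and 85.0 UMIs of Krt15 per 10000 in NO_AG mice, 34.3 and 12.1 in AG mice, and 12.3 and 17.0 in AG_CPI mice. Bulge and germ cells averaged 78.0 and 72.7, 52.7 and 35.2, and 38.8 and 38.1. The spread between groups was thus wider in the remaining cells than in bulge and germ cells. Upper follicle cells averaged 41.3 and 35.2, 21.6 and 7.50, and 13.0 and 10.3. Stress keratin cells rest on 7 and 18 cells in NO_AG, where the NO_AG 2 and AG 1 levels were close, at 14.8 and 14.3.

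Fitted within the remaining cells, Krt15 was -2.08 in AG minus NO_AG (SE 0.54), and in bulge and germ cells -0.73 (SE 0.22) in AG and -0.94 (SE 0.22) in AG_CPI minus NO_AG. None passed in limma (adjusted p = 0.38, 0.78 and 0.091), against 0.279%, 0.141% and 0.908% of genes called. AG_CPI had 1 mouse with too few remaining cells for a test. The test of the difference between states, remaining minus bulge and germ, gave -1.37 for Krt15 in AG minus NO_AG (SE 0.39, unadjusted p = 0.0039, limma adjusted p = 0.64). That did not pass either, and 0.0% of genes did.

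**Figure D4:**
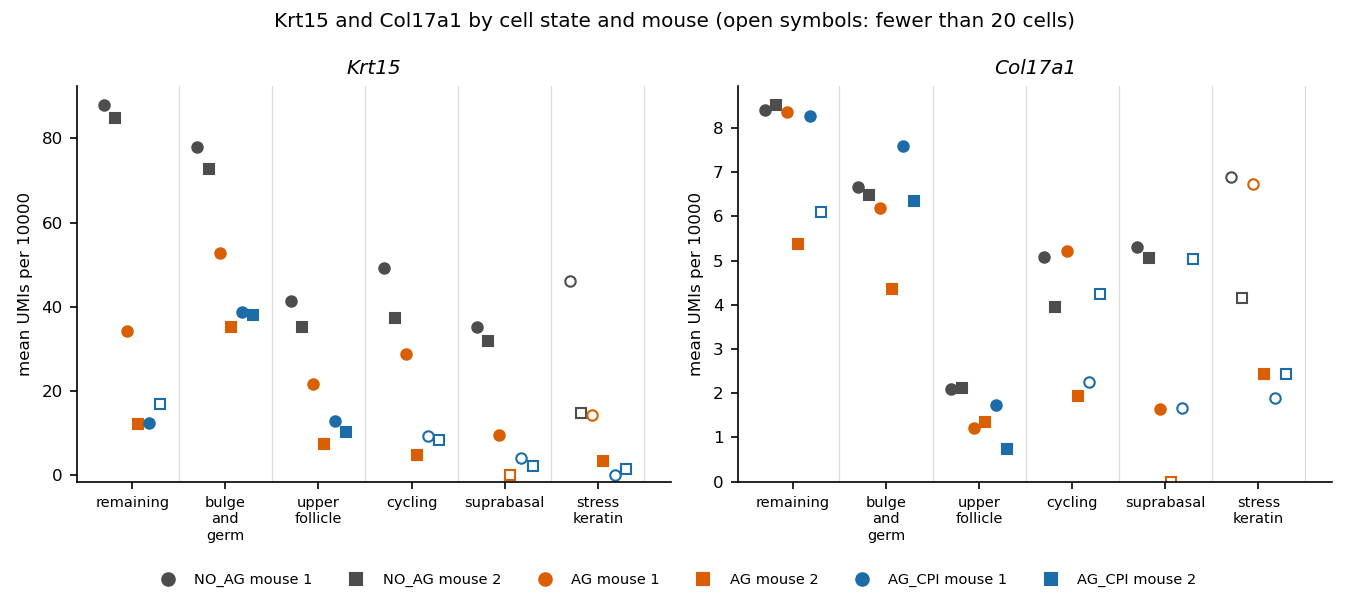
Mean Krt15 and Col17a1 levels (vertical axes, UMIs per 10000) in gated cells of each of the 6 keratinocyte states, with 1 point per mouse coloured by group and open symbols for fewer than 20 cells. For Krt15 both NO_AG mice lie above the other 4 mice in every state, with the remaining cells at 85.0 and 88.0 UMIs per 10000 in NO_AG and at 12.1 to 34.3 in the other 4.

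Among gated cells, suprabasal cells reached the minimum of 20 cells a mouse in NO_AG and AG only when the marker thresholds were halved. That gave 132 and 117 cells in NO_AG and 156 and 52 in AG. There Krt15 was -3.59 (limma adjusted p = 0.047) and Col17a1 -2.26 (adjusted p = 0.021) in AG minus NO_AG, both past the threshold, against 1.52% of 6654 genes called. Stress keratin cells also reached the minimum only at halved thresholds, and there neither passed: Krt15 was -1.46 (limma adjusted p = 0.44) and Col17a1 0.07 (adjusted p = 0.96), against 0.928% of 3664 genes called. At the thresholds used elsewhere, AG 2 had 17 suprabasal cells, with Krt15 at 0.0951 and Col17a1 at 0, while AG 1 had 102 cells with levels of 9.52 and 1.65. NO_AG had 35.1 and 31.8 for Krt15 and 5.30 and 5.05 for Col17a1. The AG_CPI mice had 1.66 and 5.04 for Col17a1, both below NO_AG, the second by little, on 16 and 18 cells.

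Col17a1 in the remaining cells averaged 8.41 and 8.52 in NO_AG mice, 8.35 and 5.37 in AG mice, and 8.27 and 6.10 in AG_CPI mice. All 4 AG and AG_CPI mice lay below both NO_AG mice, AG 1 and AG_CPI 1 by little, and the fitted AG minus NO_AG value was -0.33 (limma adjusted p = 0.70). Over the states, both AG mice lay below both NO_AG mice in 4 of 6 for Col17a1, in 2 for Itga6 and in 0 for Dsg3, and above them in 0 for each. Both AG_CPI mice lay below in 4 for Col17a1, in 1 for Itga6 and in 0 for Dsg3, and above in 0, 2 and 2. Over the states, 12.7% to 16.8% of all genes had both AG_CPI mice above both NO_AG mice, beside the shares below them given for Krt15. Krt14 over Krt5 was above both NO_AG values in all 4 other mice in every state except stress keratin cells. These ratios were read only in gated cells, which the 2 genes define, so they are a description. In the remaining cells it was 1.08 and 1.03 in NO_AG mice, 1.41 and 1.58 in AG mice, and 1.51 and 1.59 in AG_CPI mice.

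Interferons are cytokines, among them one made by activated T cells, to which keratinocytes respond by raising a set of induced genes. Gated cells were divided in each mouse at 20 UMIs per 10000 of 19 interferon-induced genes, none of them a member, which is a cut on a range and not a cell type. The interferon-high share was 4.44% and 7.70% in NO_AG mice, 48.3% and 68.8% in AG mice, and 33.6% and 27.7% in AG_CPI mice. In this within-mouse comparison limma called 134 of 8528 genes, or 1.57%.

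Col17a1 was higher in the interferon-high cells of all 6 mice: 6.58 against 5.93 and 7.16 against 5.82 in NO_AG mice, 5.16 against 3.99 and 2.58 against 1.64 in AG mice, and 5.68 against 3.87 and 3.77 against 2.84 in AG_CPI mice. The difference of 0.39 (SE 0.07) passed in limma (adjusted p = 0.016). That call was lost with the division at 10 or 40 UMIs per 10000, after thinning, and without AG 1 (adjusted p = 0.30, 0.22, 0.18 and 0.068), while the value stayed between 0.33 and 0.39. Itga6 was higher in the interferon-high cells of 6 of 6 mice too, at 0.29, which did not pass (adjusted p = 0.10).

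The keratin pair was tested in keratinocytes chosen without it, where limma called 3.44% of 8723 genes. Krt5 in interferon-high against interferon-low cells was 77.7 against 55.1 and 76.6 against 59.99 in NO_AG mice, 91.8 against 51.1 and 41.9 against 27.8 in AG mice, and 69.1 against 52.6 and 37.8 against 20.5 in AG_CPI mice. All 6 mice had more Krt5 in their interferon-high cells, with a difference of 0.63 (adjusted p = 0.0017). Krt14 was higher in 6 of 6 mice as well, at 0.64 (adjusted p = 0.0040), for example 145 against 79.2 in AG 1. Both kept their calls without any 1 mouse. Col17a1 and Itga6 also passed here, at 0.65 (adjusted p = 0.0011) and 0.42 (adjusted p = 0.0099), and Itga6 lost its call without NO_AG 1 or AG 1 and at a division of 40 (0.37, adjusted p = 0.23).

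Krt15 gave no single direction. Its level in interferon-high against interferon-low gated cells was 62.9 against 68.2 and 57.7 against 62.7 in NO_AG mice, 26.1 against 37.0 and 7.80 against 9.23 in AG mice, and 17.9 against 15.1 and 12.9 against 14.8 in AG_CPI mice. AG_CPI 1 alone had the higher level in interferon-high cells. The difference of -0.16 (SE 0.06) did not pass (limma adjusted p = 0.32), although it did at a division of 40 UMIs per 10000 (-0.34, adjusted p = 0.010) and without AG_CPI 1 (-0.22, adjusted p = 0.038). By the other choice of cells it was 0.06, and 0.40 at a division of 10, which passed (adjusted p = 0.0018), so no direction is read. These within-mouse values were smaller than the Krt15 difference between NO_AG and either other group. Dsg3 was higher in the interferon-high cells of 2 of 6 mice and did not pass.

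The interferon-high and interferon-low cells also differed in their make-up of states. With the same state weights in both, Col17a1 in gated cells differed by 0.34 and did not pass (limma adjusted p = 0.48), nor did it in the AG and AG_CPI mice alone, at 0.46 (adjusted p = 0.093). The weights used only states with at least 10 cells in both sets of a mouse. In gated cells that left upper follicle and remaining cells in AG_CPI 1, and upper follicle and bulge and germ cells in AG_CPI 2. The part of the dropped cells in the lost call was not tested. In keratinocytes chosen without the keratin pair, Krt5 and Krt14 with the same state weights still passed, at 0.43 (adjusted p = 0.033) and 0.51 (adjusted p = 0.021), while Col17a1 at 0.51 and Itga6 at 0.31 did not (adjusted p = 0.15 and 0.16). In the AG and AG_CPI mice alone Krt5 and Col17a1 passed there, while Krt14 at 0.67 and Itga6 at 0.41 did not (limma adjusted p = 0.058 and 0.22). No member's interferon difference itself differed between groups in limma's interaction test in gated cells, in which 1 gene or fewer was called in each of the 3 contrasts, or at most 0.0117%.

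**Figure D5:**
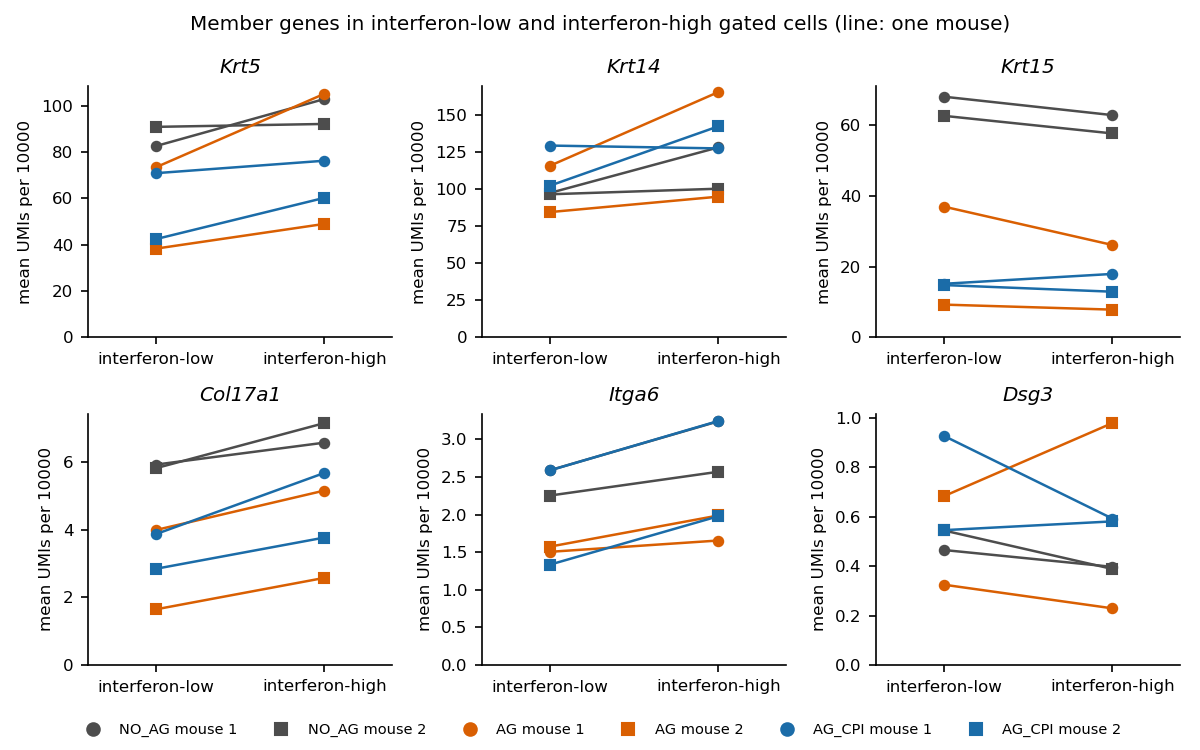
Mean level of each of the 6 genes (vertical axes, UMIs per 10000) in interferon-low and interferon-high gated cells, with a line joining the 2 values of each mouse, coloured by group. The Col17a1 lines climb in all 6 mice, from 3.99 to 5.16 in AG 1 for example, while the Krt15 lines descend in 5 of 6.

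Other genes of the layer were read from 6 lists of 80 genes, of which 79 had a column and 69 were tested between groups. In AG minus NO_AG none passed in limma, with 14 lower and 1 higher at an unadjusted p under 0.05, beside 4.03% of all genes lower and 4.38% higher at that level. In AG_CPI minus NO_AG 2 passed, beside 0.392% of all genes passing as lower, both lower and both from the basement membrane list of 16 tested genes: Col4a1 and Col4a2, which encode chains of type IV collagen. Col4a1 averaged 0.231 and 0.331 UMIs per 10000 in NO_AG mice, 0.119 and 0.106 in AG mice, and 0.020 and 0.018 in AG_CPI mice (-1.62, adjusted p = 0.021). Col4a2 gave -1.57 (adjusted p = 0.027). These rest on 6 UMIs of Col4a1 and 5 of Col4a2 in AG_CPI, against 663 and 578 in NO_AG. Taken per UMI of each group's gated cells, the ratio of AG_CPI to NO_AG was 0.121 for Col4a1 (95% exact interval 0.0442 to 0.265, for counting error only). By the choice of cells without Krt5 and Krt14 the differences were -0.19 and -0.42 and neither passed, and without either NO_AG mouse or either AG_CPI mouse neither gene passed in gated cells. Neither gene reached the filter's 10 UMIs in an AG_CPI mouse, with 4 and 2 of Col4a1 and 4 and 1 of Col4a2. Both were thus tested only because they were higher in the other groups, so no support is drawn from their calls. The Col4a1 means in AG_CPI also lay under the pseudocount of 0.1. With limma-voom, or without a filter on low values, every gene called in AG_CPI minus NO_AG was higher, so neither passed. Fibroblasts and endothelial cells also make type IV collagen. In gated cells the 6 fibroblast markers summed to 0.113 and 1.4 in NO_AG mice, 0.0490 and 0.671 in AG mice, and 0.0167 and 0.0791 in AG_CPI mice, with 6 markers above 0 in each NO_AG mouse and 1 and 2 in AG_CPI. The 4 endothelial markers summed to 0 to 0.130, and the part of either in this result was not tested.

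The lists' medians in AG_CPI minus NO_AG were -0.52 for 4 hemidesmosome genes, -0.47 for 16 basement membrane genes and -0.41 for 17 integrin and focal adhesion genes, and 0.53 for 11 desmosome genes and 0.23 for 9 adherens junction genes, beside -0.03 over all genes tested. In AG minus NO_AG they were -0.46, -0.52, -0.27, 0.13 and 0.12 in the same order, beside -0.03. The 12 regulators of basal cells had medians of -0.24 in AG and -0.08 in AG_CPI. Both comparisons share the NO_AG mice. Itgb4, the partner of Itga6, was named after its values were seen: it averaged 1.5 and 1.34 in NO_AG mice, 0.965 and 0.985 in AG mice, and 0.968 and 0.773 in AG_CPI mice. Both NO_AG mice were highest, at -0.44 in AG and -0.58 in AG_CPI minus NO_AG, and neither passed (limma adjusted p = 0.59 and 0.20).

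Between states the lists differed in direction. In suprabasal minus remaining gated cells, which rest on suprabasal cells of 3 mice (both NO_AG mice and AG 1), 11 of 17 basement membrane genes and 2 of 4 hemidesmosome genes were lower and passed in limma, with none higher, while 8 of 11 desmosome genes were higher and 1 was lower. Over all genes, 5.67% passed as lower and 3.83% as higher. Lamb3, a chain of the laminin that hemidesmosomes bind, was -2.15, and Itgb4 was -1.89. Dsg1a, a desmosomal cadherin of the upper layers, was 2.28 and Perp, a desmosomal membrane protein, was 1.11, while Dsg2 was the desmosomal gene that was lower, at -1.56. All 11 basement membrane genes and all 9 desmosome genes passed in the same direction by the choice of cells without Krt5 and Krt14, but 1 of the 2 hemidesmosome genes, Plec, did not (-0.25, limma adjusted p = 0.30). In gated cells some calls rested on single mice: Plec, Lamb1, Fras1, Lama3, Col4a2, Dsc1 and Dsg1b were among the genes that lost theirs without at least 1 of the NO_AG or AG mice. Perp was among the genes used to choose those other cells.

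In upper follicle minus remaining gated cells, 3 of 4 hemidesmosome genes (Itgb4 at -1.69, Dst at -1.33 and Plec at -1.02) and 6 of 17 basement membrane genes were lower and passed, with 5.33% of all genes passing as lower. By the other choice of cells 2 of the 3 hemidesmosome genes passed, Dst giving -0.86 (limma adjusted p = 0.063), and all 6 basement membrane genes did. Itgb4, Dst and Plec encode the integrin partner and the linker proteins between hemidesmosome and keratin filament. The basement membrane genes included Lamb3 at -1.70 and Lama3 at -1.36, which encode laminin chains. Among 9 adherens junction genes 5 were higher, beside 5.84% of all genes, led by Nectin4 at 1.95, and Cdh3 was lower at -0.64. Cdh1 and Cdh3 lost their calls without any 1 of NO_AG 1, NO_AG 2 or AG 1, and Ctnnb1 lost its call without any 1 of NO_AG 1, AG 2 or AG_CPI 1 and by the other choice of cells (0.14, limma adjusted p = 0.75).

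Likeness was measured as Pearson r of log2(mean + 0.1) over 25 points, each a state of 1 mouse with at least 20 gated cells, against 1142 genes. Points share mice, states and depth, so r is a description. Col17a1 was most like Krt5 (r = 0.90), Tgfbi (0.90), Itga6 (0.86), Dst (0.85) and Itgb4 (0.82), and Itga6 was most like Col17a1, Tgfbi (0.84) and Itgb4 (0.82). Krt5 was also like Lmna (0.88) and Selenow (0.85). Krt15 had other neighbours: Nfix (0.92), Gnas (0.89), Jun (0.88), Fos (0.87) and Cib2 (0.87). Krt14 was most like Fam162a (0.77) and Stfa3 (0.73), and Dsg3 was most like Ddx46 (0.79). Among the members, r was 0.63 between Krt15 and Col17a1, -0.06 between Krt15 and Krt14, and 0.58 between Krt5 and Krt14.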

How the data were processed

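Droplet 5' RNA libraries were read from deposited tables of cells by genes; per the submitters' processing notes, Cell Ranger 3.1 and the mm10 build were used. The deposited values are log10 of 1 plus UMIs per 10000 of the cell. Undoing the log10 gave whole UMIs for 100% of values (tolerance 0.02 UMI). Each deposited cell held between 1501 and 14995 UMIs, and the depth sets how precisely low genes are known.

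Kept were 21127 cells that had 200 genes or more and whose mitochondrial share of UMIs was 20% or less. No doublet caller was run. As an alternative, cells carrying markers of other types, high Cd74 among them, and the deepest cells of each library were left out. Per mouse, the linear mean over cells was scaled by trimmed means (TMM), and log2(mean + 0.1) was fitted with limma 3.58.1 in R 4.3.3, with the group as the only term for comparisons between groups, over genes with a mean of 0.1 and 10 UMIs in at least 2 libraries. Within-mouse comparisons had mouse as block. Benjamini-Hochberg adjustment covered all genes tested, at 0.05, and the script was tested on simulated data. Groups came from the labels, which name no shared litter or batch; the p-values measure the spread between mice as labelled.

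The members and lists were chosen with earlier results of these data known. List genes were named where they passed, by p, at most 5 a list, and the 5 genes most like each member were ranked by Pearson r. Alternatives covered the choice and filtering of cells, thresholds, pseudocount, scaling, depth, test, pairing and leaving out each mouse. The comparisons of states within mice, and those of interferon-high cells by the other choice of cells, with state weights or without a mouse, were added after seeing the data. Results on some listed genes are not reported here.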

Additional observations from a re-analysis of the deposited data

How the results depend on the processing

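Member values by group were refitted 360 times in gated cells. Of these, 357 stayed short of the threshold, as the values with all mice did, some with a turned sign. The other 3, all for Krt15, left out an AG mouse, and with it the spread between the AG mice. Leaving out each mouse moved Krt15 between -2.94 and -0.92 in AG minus NO_AG and between -2.15 and -1.90 in AG_CPI minus NO_AG. Other settings gave -2.36 to -1.42 and -2.56 to -1.71, never past the threshold. Within bulge and germ cells, doubled state thresholds gave Krt15 -1.14 in AG_CPI minus NO_AG, which passed (adjusted p = 0.042).

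Counts of genes called moved far more. AG against NO_AG gave 41, but 2 without a filter on low values, 202 with limma-voom on recovered UMIs, and 7 to 121 without 1 mouse. AG_CPI against AG gave 0, and 0 to 2 without 1 mouse. AG_CPI against NO_AG gave 79, but 18 and 46 with the keratin bound at 20 and 100, 19 in cells chosen without Krt5 or Krt14, 39 at a pseudocount of 0.5, 3 without the filter, 52 after thinning, 19 with limma-voom, and 5 to 199 without 1 mouse. The cause was not tested.

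Interferon-high against interferon-low gave 134 genes, but 42 after thinning, 27 in AG and AG_CPI mice, 30 with the same state weights, 300 in cells chosen without Krt5 or Krt14, and 57 to 189 without 1 mouse. In gated cells, which Krt5 and Krt14 define, their values are a description: Krt5 was 0.30, then 0.35 in AG and AG_CPI mice, 0.15 with the same state weights and 0.25 to 0.35 without 1 mouse. Krt14 was 0.26, then 0.34 and 0.37 at divisions of 10 and 40, 0.26 after thinning, 0.64 in cells chosen without the pair and 0.20 to 0.33 without 1 mouse. Krt15 passed at a division of 40 (-0.34), with -0.22 to -0.10 without 1 mouse. Col17a1 did not pass at 10 (0.33) or 40 (0.35), after thinning (0.37), in AG and AG_CPI mice (0.46) or with state weights (0.34), with 0.34 to 0.44 without 1 mouse. Itga6 passed in cells chosen without the pair (0.42). Bulge and germ minus remaining turned for Krt5 (0.029) and Itga6 (0.068) by that choice. The cause was not tested.

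The labels share replicate numbers 1 and 2 without saying that they pair mice. Deviations of same-numbered mice correlated at 0.18, 0.095 and 0.047, so the numbers were taken as names. A replicate block in the fit gave calls of 51, 0 and 99 genes in AG against NO_AG, AG_CPI against AG and AG_CPI against NO_AG, and no member passed, Krt15 giving -1.94 (adjusted p = 0.15) and -2.02 (adjusted p = 0.072) against NO_AG.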

Other observations

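Keratins of the upper layers were also read in gated cells, and were named here after their values were seen. Krt1, a keratin of cells that have left the basal layer, averaged 3.77 and 4.36 UMIs per 10000 in NO_AG mice, 7.67 and 4.96 in AG mice, and 14.3 and 22.3 in AG_CPI mice. Its partner Krt10 averaged 4.5 and 6.31, 9.45 and 2.58, and 11.6 and 19.6. Both were highest in the AG_CPI mice, where gated cells were fewest, and no test of either is given.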
